A study of Homo sapiens with 6 samples.

Results

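The genes described here are 6 metallothionein genes, MT1E, MT1F, MT1G, MT1M, MT1X and MT2A, and MTF1, the metal-responsive transcription factor that switches them on. The rule names them by symbol and holds no measured value, but they were chosen with earlier results of these data known. Of these 7 genes, 4 had a row among the 29845 genes of the count table and all 4 were tested among 16555 genes: MT1F, MT1X, MT2A and MTF1. MT1E, MT1G and MT1M were not analysed here. The study asked how overexpression of TFAM, the transcription and packaging factor of mitochondrial DNA, changes gene expression and splicing in A549 cells, an established human lung epithelial cancer line. Cells of both groups were transfected with the pIRES-hrGFP-1a vector by lipofection. The control cells received the vector without an insert, and the TFAM-OE cells received the vector with a FLAG-tagged TFAM gene. Each group gave 3 libraries of polyadenylated RNA, and all 6 libraries come from the same cell line.

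Metallothioneins are small cysteine-rich proteins that hold zinc, copper and cadmium ions in metal-thiolate clusters. They buffer the free zinc of the cell and take up toxic metals. When free zinc rises, the zinc fingers of MTF1 bind it, and MTF1 then binds short metal response elements in the promoters of the metallothionein genes and of the zinc exporter SLC30A1. MT2A also answers to glucocorticoids through the glucocorticoid receptor.

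The core of a metal response element, TGCACNC or TGCGCNC, was searched on both strands of the RefSeq promoters (GRCh38.p14, from 250 bases before to 50 bases after the transcript start). Of the members with values, MT2A, MT1X and MTF1 matched this table by symbol. MT2A held 8 matches, of which 7 lay before the start, and MT1X held 4. MTF1 held 0 matches in this window. No match overlapped another. For comparison, 29.6% of 35116 promoters of the same length held at least 1 match, 0.601% held at least 4 and 0.0199% held at least 8. The sequences below show 3 matches of each metallothionein promoter, those at like distances from the start in both genes, read on the plus strand, which is the strand of both genes. Capitals mark the core or its reverse complement.
MT2A, 153 bases before the start, chr16:56608420-56608448: gcagagccgggTGCGCCCggcccagtgcg
MT2A, 88 bases before the start, chr16:56608485-56608513: cagcgcggggcGTGTGCAggcagcgcccg
MT2A, 54 bases before the start, chr16:56608519-56608547: ggcggggctttTGCACTCgtcccggctct
MT1X, 150 bases before the start, chr16:56682309-56682337: aggccccgcggTGCGCCCggcgctgggct
MT1X, 78 bases before the start, chr16:56682381-56682409: tcagcaggggcGGGTGCAaggacgaggcg
MT1X, 53 bases before the start, chr16:56682406-56682434: ggcggggcctcTGCGCCCggccctcttcc
A match is a run of letters and was not tested for binding. In both genes the middle one of the 3 matches shown lies on the other strand.

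**Figure D1:**
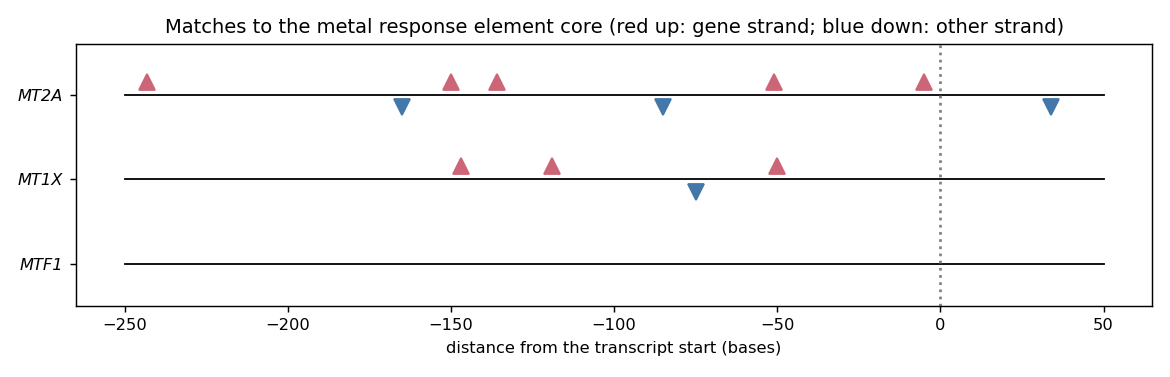
Positions of matches to the core of the metal response element along 300 bases of the RefSeq promoters of MT2A, MT1X and MTF1. The horizontal axis is the distance from the transcript start in bases, red triangles are matches on the gene strand and blue triangles matches on the other strand. MT2A carries 8 matches, MT1X 4 and MTF1 0.

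The deposited read counts summed to between 26650854 and 37321956 per library. TFAM itself had 2555, 1878 and 2663 reads in control libraries and 2291, 2808 and 2492 in TFAM-OE replicates 1 to 3, which is 73 ± 2.97 against 77.4 ± 5.58 CPM (CPM are reads scaled to a common depth with TMM factors; mean ± SD, n = 3). The groups overlapped, and the edgeR log2 fold change was 0.08 (SE 0.096, adjusted p = 0.623). The count of TFAM did not tell the groups apart. The study checked the overexpressed protein by its FLAG tag on a western blot, which the read counts do not measure. The insert was a complete TFAM cDNA, yet the TFAM count did not bear out the labels (fold 1.06, 95% interval 0.914 to 1.23). The second group is therefore called the libraries labelled TFAM-OE. Markers of an epithelial line were high, with KRT8 at 648.17 to 743.05 FPKM and KRT18 at 473.45 to 567.26 FPKM, whereas EPCAM was at most 0.47 and CDH1 at most 1.48 FPKM. The surfactant gene SFTPC was at most 0.09 FPKM. Among markers of leukocytes, endothelium and fibroblasts, PTPRC and DCN had at most 1 read, PECAM1, VWF and CDH5 at most 4, and CD68 and COL1A1 at most 1.65 and 0.63 FPKM. SFTPA1, CD3E and COL1A2 were not analysed here. In bulk RNA, fewer cells that express a gene and less of its RNA per cell cannot be told apart.

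MT2A had the most RNA of the 4 metallothionein genes that could be tested. On a scale of CPM per kilobase of canonical transcript, which allows genes to be compared, MT2A had 1561 ± 133 in control and 1585 ± 380 in libraries labelled TFAM-OE. MT1X followed with 44.4 ± 4.54 and 62.8 ± 5.95, then MT1A, a further metallothionein that is not among the 7 genes, with 21 ± 2.83 and 27.4 ± 5.64. MT1F was lowest of the measured family members that could be tested, with 7.5 ± 0.577 and 11.1 ± 0.249. On this scale the order in each of the 6 libraries was MT2A, MT1X, MT1A and MT1F, and no neighbours in that order overlapped over the libraries of a group. The order of MT1X and MT1A depended on the length used. On the deposited FPKM, MT1A (16.66) stood above MT1X (16.04) in control replicate 3, and the 2 genes overlapped in both groups. MT2A took between 93% and 95.9% of the reads of these 4 genes, and the 4 genes together took between 0.0533% and 0.0781% of a library. By mean deposited FPKM, MT2A ranked 99 of 29656 genes in control libraries and 105 in those labelled TFAM-OE. MTF1 was far lower, at rank 10275 and 11376.

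MT1X and MT1F, both metal-binding proteins of the MT1 class, were higher in the libraries labelled TFAM-OE by an adjusted p under 0.05. They make 2 of the 4 genes tested, where 3.48% of all genes tested passed in that direction. The members were chosen with earlier results of these data known, so this share is a description and not a test of the group. None of the 4 passed as lower in the edgeR quasi-likelihood test, where 4.81% of all genes did, although 1 of the 4, MTF1, had an unadjusted p under 0.05 and was called by DESeq2 and by the edgeR exact test. The share of all genes at that unadjusted p was not worked out. Of the 16555 genes tested, DESeq2 called 1105 lower and the exact test 1235. Neither MT1X nor MT1F reached a fold of 2, so 0 of the 4 genes passed both the adjusted p and the fold that the study required. Over all genes 2.51% passed both.

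MT1X (ENSG00000187193.8, chr16:56682470-56684196, plus strand, 3 exons in its canonical transcript) had 632, 513 and 580 reads in control replicates 1 to 3 and 865, 957 and 679 in TFAM-OE replicates 1 to 3. Scaled for depth, these are 18.8, 19.2 and 15.8 against 27.1, 26.3 and 22.6 CPM. Every library labelled TFAM-OE lay above every control library, which 15.8% of all genes tested also showed in that direction. The means were 17.9 ± 1.84 and 25.4 ± 2.41 CPM, a fold of 1.42 (95% interval 1.16 to 1.72), and the edgeR log2 fold change was 0.50 (SE 0.13, adjusted p = 0.0405). On the deposited FPKM the groups were apart as well, at 20.11, 19.75 and 16.04 against 26.42, 26.63 and 24.44. The call was lost in most edgeR fits that left out 1 library. The adjusted p was 0.121, 0.116 and 0.11 without control replicate 1, 2 and 3, and 0.181 without TFAM-OE replicate 2. It stayed under 0.05 without TFAM-OE replicate 1 (0.0455) and without TFAM-OE replicate 3 (0.00782). The log2 fold change was 0.54, 0.56 and 0.42 without control replicate 1, 2 and 3, and 0.48 without TFAM-OE replicate 2. Calls over all genes moved too: 576 genes passed as higher with all 6 libraries. Without control replicate 1, 2 and 3 these were 90, 66 and 482. Without TFAM-OE replicate 1, 2 and 3 they were 753, 89 and 1428. A lncRNA, ENSG00000259827, lies on the same strand and overlaps MT1X in the annotation, and reads of the shared part cannot be told apart.

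MT1F (ENSG00000198417.6, chr16:56657731-56660698, plus strand, 3 exons) had 99, 85 and 126 reads in control libraries and 150, 168 and 145 in those labelled TFAM-OE. These are 2.95, 3.18 and 3.44 against 4.71, 4.62 and 4.83 CPM, again with no overlap. The SD of the 3 libraries labelled TFAM-OE was 2.24% of their mean, less than the 8.3% that counting alone gives at 145 reads. The means were 3.19 ± 0.245 and 4.72 ± 0.106 CPM, a fold of 1.48 (1.17 to 1.86), with an edgeR log2 fold change of 0.56 (SE 0.15, adjusted p = 0.0466). Leaving out any library but TFAM-OE replicate 3 (0.0447) ended the call. The edgeR adjusted p was 0.17, 0.154 and 0.0642 without control replicate 1, 2 and 3, and 0.066 and 0.164 without TFAM-OE replicate 1 and 2. The log2 fold change itself stayed between 0.45 and 0.63 over all 17 alternatives, and that of MT1X between 0.42 and 0.58.

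MT2A (ENSG00000125148.6, chr16:56608584-56609497, plus strand, 3 exons), the most abundant member, had 18997, 17874 and 23616 reads in control libraries and 24789, 23800 and 14246 in those labelled TFAM-OE. In CPM these are 566, 668 and 644 against 778, 655 and 475. TFAM-OE replicate 1 was the highest and TFAM-OE replicate 3 the lowest of all 6 libraries, so the groups overlapped. The means were 626 ± 53.5 and 636 ± 152 CPM, and the edgeR log2 fold change was 0.02 (SE 0.16, adjusted p = 0.949). The 95% interval of the fold, 0.79 to 1.31, overlaps those of MT1X (1.16 to 1.72) and MT1F (1.17 to 1.86). The fold changes of these genes were not tested against each other in this fit. The MT2A interval still allows a fold of up to 1.31. Without TFAM-OE replicate 3 the log2 fold change was 0.20 (adjusted p = 0.214), and without TFAM-OE replicate 1 it was -0.15 (adjusted p = 0.545). Counting error was 0.838% at the lowest count, against a spread of 24% between the libraries labelled TFAM-OE.

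MT1A (chr16:56638666-56640087, plus strand), closely related to MT1X and MT1F, had 241, 252 and 306 reads in control libraries and 414, 400 and 256 in those labelled TFAM-OE, or 8.31 ± 1.12 against 10.8 ± 2.23 CPM. TFAM-OE replicate 3 fell among the controls, and the log2 fold change of 0.39 (SE 0.18) did not pass (edgeR adjusted p = 0.207). Without that library the adjusted p was 0.0293. Of the 14 other metallothionein genes and pseudogenes looked for, 9 had a row and MT1A alone could be tested. MT1DP, a pseudogene, had 9, 2 and 9 reads in control libraries and 9, 12 and 7 in those labelled TFAM-OE. MT1B, MT3, MT1JP, MT1P1, MT1P3, MT1XP1 and MT2P1 had at most 5 reads in any library. The remaining ones were not analysed here.

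**Figure D2:**
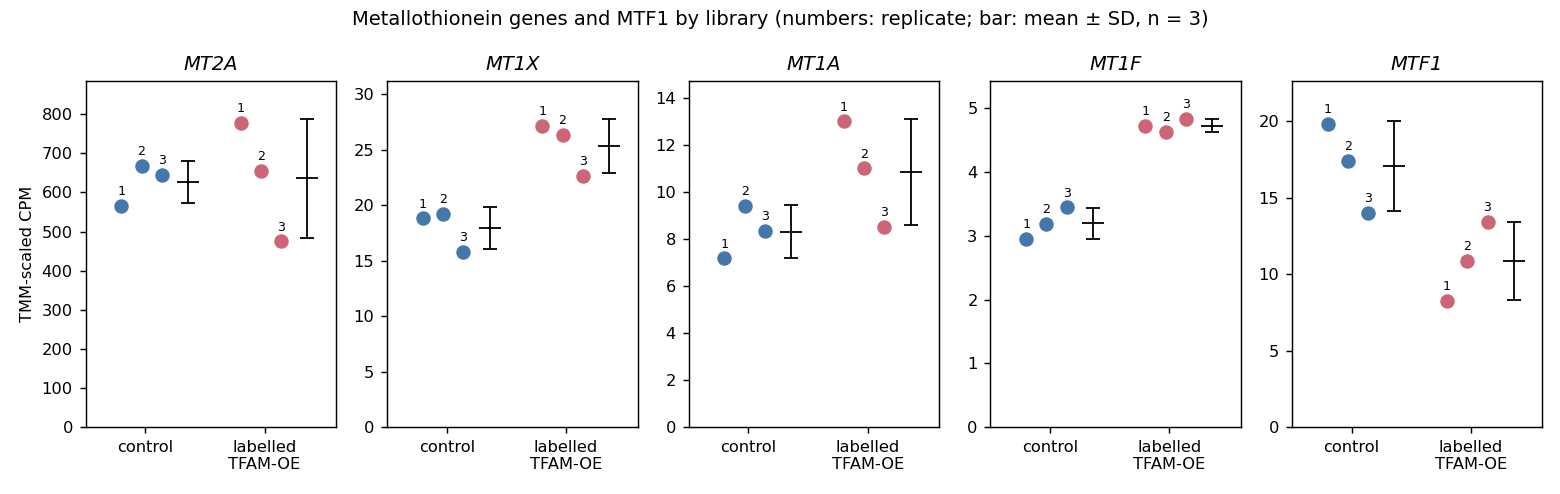
TMM-scaled CPM (vertical axes, each from 0) of MT2A, MT1X, MT1A, MT1F and MTF1 in the 3 control libraries and the 3 labelled TFAM-OE. Points are libraries with their replicate number, and bars are the mean ± SD. MT1X and MT1F lie higher without overlap, MT2A overlaps from 475 to 778 CPM, and MTF1 runs from 19.8 CPM in control replicate 1 to 8.28 CPM in TFAM-OE replicate 1.

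Because MT2A spread widely over the libraries labelled TFAM-OE, the MT1 genes were also set against MT2A within each library, a comparison chosen after the values were seen. MT1X had 3.33, 2.87 and 2.46 reads per 100 MT2A reads in control libraries and 3.49, 4.02 and 4.77 in those labelled TFAM-OE. MT1A had 1.27, 1.41 and 1.3 against 1.67, 1.68 and 1.8. MT1F had 0.521, 0.476 and 0.534 against 0.605, 0.706 and 1.02. All 3 genes were higher relative to MT2A in every library labelled TFAM-OE than in any control library, as were 9.01% of all genes tested. The ratios of the means were 1.42, 1.3 and 1.52, in the order MT1X, MT1A and MT1F, each with p = 0.1 in a two-sided exact permutation test, the smallest that 3 against 3 libraries can give. These 3 ratios share the MT2A reads of a library and are not independent of each other, and TFAM-OE replicate 3, with the fewest MT2A reads, gave the highest value for each gene. A ratio shows unequal amounts and not which of the pair differs.

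**Figure D3:**
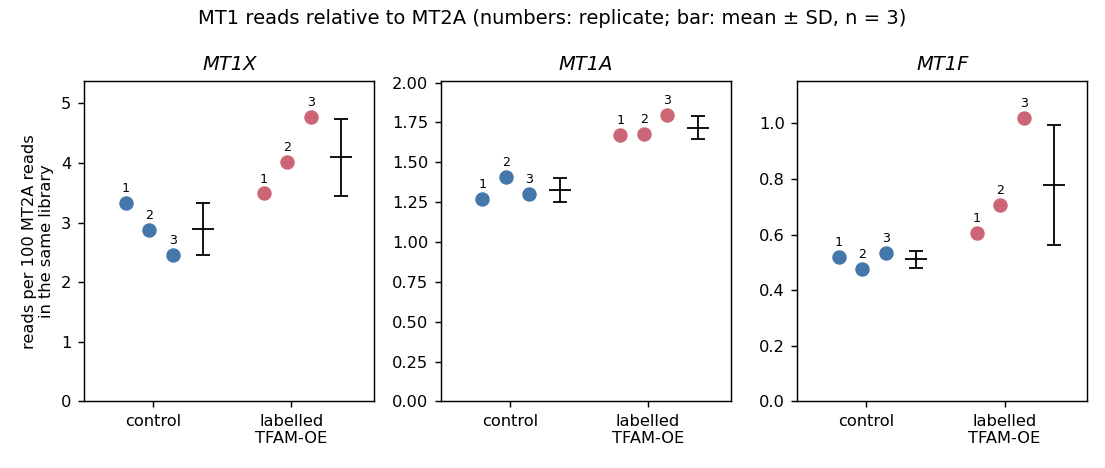
Reads of MT1X, MT1A and MT1F per 100 MT2A reads of the same library (vertical axes, each from 0) in the 3 control libraries and the 3 labelled TFAM-OE. Points are libraries with their replicate number, and bars are the mean ± SD. The groups do not overlap for any of the 3 genes.

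The metallothionein genes stand in 1 cluster on chromosome 16, which in GENCODE 44 spans 119.1 kb and holds 16 gene symbols, 11 of them protein coding. MT2A stands before MT1A, MT1F and MT1X, which begin 30.1, 49.1 and 73.9 kb after its start. The fitted log2 fold changes in this order were 0.02, 0.39, 0.56 and 0.50. The differences between these fold changes were not tested over the position. Of the 6 protein-coding genes that flank the cluster, 3 on each side, 5 had a row and 4 were tested. BBS2, a part of the complex that sorts ciliary membrane proteins, had 16.1, 13.7 and 15 CPM in control libraries and 17.3, 18.5 and 22 in those labelled TFAM-OE, with a log2 fold change of 0.37 (edgeR adjusted p = 0.118). OGFOD1, NUP93 and HERPUD1 had log2 fold changes of -0.06, 0.22 and -0.01, and SLC12A3 had 1 read in all. None of the 4 passed in edgeR, DESeq2, the exact test or limma-voom, and 1, BBS2, had an unadjusted p under 0.05 in each. The share of all genes at that unadjusted p was not worked out. ENSG00000288725 was not analysed here.

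**Figure D4:**
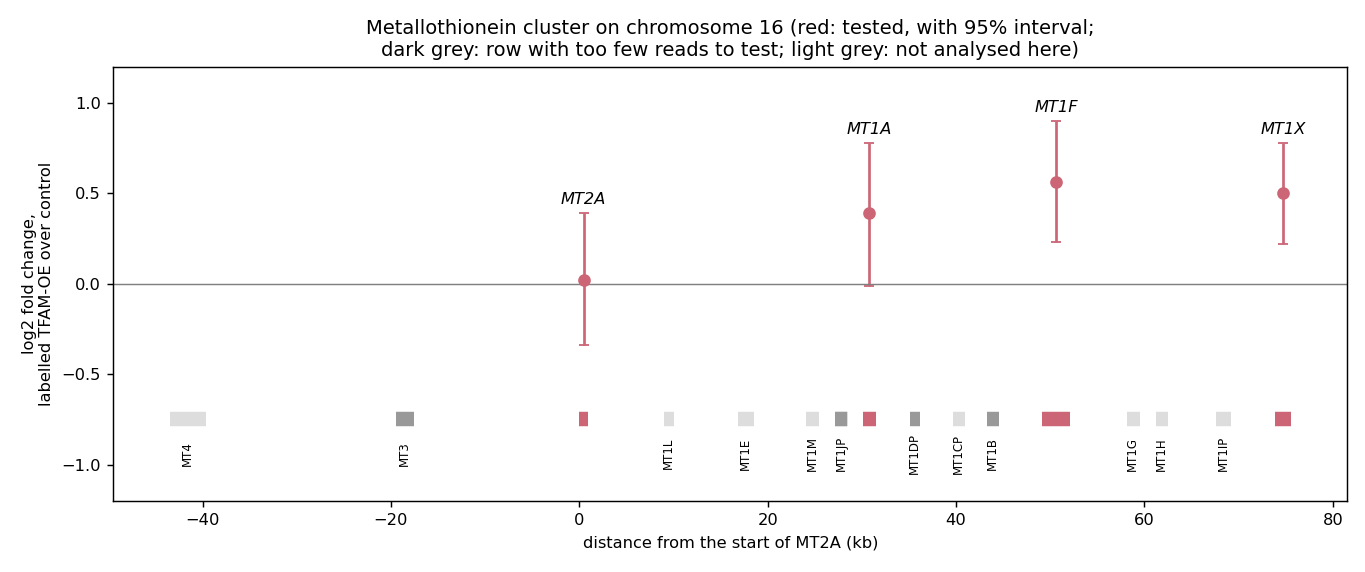
Metallothionein cluster by distance from the start of MT2A in kb (horizontal axis), with the log2 fold change of the libraries labelled TFAM-OE over the control and its 95% interval (vertical axis) above each tested gene. Bars mark genes, in red where tested, dark grey where the reads were too few and light grey where not analysed here. The intervals of MT2A and MT1A include 0, and those of MT1F and MT1X do not.

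Metallothionein transcripts resemble each other, and reads can be lost or misplaced where copies share sequence. The canonical transcripts of MT2A, MT1X, MT1A and MT1F were between 396 and 425 bases long and between 74.1% and 79.1% identical. Of all windows of 50 bases, 11.1% of those of MT2A and 18% of those of MT1X also occurred in another gene's transcript, against 5.76% for MT1A, 6.12% for MT1F and 0.647% for MTF1. No window of 100 bases was shared for any of the 5 genes. Genes that overlap a member on its own strand were left out of these shares. Windows that MT1X shares with the lncRNA ENSG00000259827 are therefore not counted. The authors kept uniquely mapped reads with up to 4 mismatches, so their counts of these paralogs remain uncertain to an extent that was not tested. Their FPKM also divide these genes by unequal lengths. Relative to MT1A, the length behind the FPKM was 2.37 for MT2A, 1.97 for MT1X and 1.75 for MT1F, where canonical transcripts give 1.01, 1.02 and 1.07. FPKM therefore places MT2A closer to MT1A than CPM per kilobase of canonical transcript does.

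MTF1 (ENSG00000188786.9, chr1:37809574-37859592, minus strand, 11 exons in a canonical transcript of 7937 bases) had 665, 466 and 514 reads in control libraries and 264, 395 and 401 in those labelled TFAM-OE. In CPM these are 19.8, 17.4 and 14 against 8.28, 10.9 and 13.4. The groups did not overlap, as for 15.8% of all genes tested that were lower, but TFAM-OE replicate 3 came close to control replicate 3. The means were 17.1 ± 2.9 and 10.8 ± 2.54 CPM, a fold of 0.635 (0.472 to 0.852). The log2 fold change was -0.66 (SE 0.19) with an unadjusted p of 0.0064 and an adjusted p of 0.0629 in edgeR, which did not pass. On the deposited FPKM, 2.18, 1.85 and 1.47 against 0.83, 1.13 and 1.49, TFAM-OE replicate 3 lay just above control replicate 3.

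The MTF1 call depended on the test. It passed when every gene with a read was fitted in edgeR (adjusted p = 0.00121), in DESeq2 (0.0157), in the edgeR exact test (0.0192) and in edgeR without TFAM-OE replicate 3 (0.00703, with a log2 fold change of -0.82). Over the 6 fits that left out a library, the edgeR adjusted p ran from 0.00703 to 0.268. All 17 alternatives gave a lower mean in the libraries labelled TFAM-OE, with log2 fold changes from -0.82 to -0.40. TFAM-OE replicate 1 had the lowest MTF1 and the highest MT2A of the 6 libraries. A transcript on the other strand, ENSG00000235673, overlaps MTF1 in the annotation, and whether strand was used in counting is not given in the sources used here.

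Targets of MTF1 outside the metallothioneins were read from a list of 8 genes, of which 7 had a row and 6 were tested. SLC30A1, the zinc exporter of the plasma membrane and the best known of them, had 77.1, 64.4 and 51.7 CPM in control libraries and 33.8, 39.5 and 52 in those labelled TFAM-OE. TFAM-OE replicate 3 reached the level of control replicate 3, whereas for MTF1 it stayed just below (13.4 against 14 CPM). Its log2 fold change was -0.63 (SE 0.18), and its adjusted p of 0.0609 in edgeR did not pass. It passed with every gene with a read (7.15e-05), in DESeq2 (0.0155), in the edgeR exact test (0.0142) and in edgeR without control replicate 3 (0.0413) or TFAM-OE replicate 3 (0.00352). PGF, placental growth factor, was lower, with 4.02, 3.32 and 3.22 against 1.69, 2.37 and 1.6 CPM and a log2 fold change of -0.89 (SE 0.20, edgeR adjusted p = 0.0285). It lost the call without control replicate 1 (0.136) and control replicate 2 (0.096). SLC39A10, a zinc importer that MTF1 represses, had 44, 41.2 and 39.1 against 28.6, 36 and 36 CPM, a log2 fold change of -0.31 (edgeR adjusted p = 0.144). The other tested targets, CSRP1, GCLC and NDRG1, had log2 fold changes of 0.24, 0.07 and -0.17 (edgeR adjusted p = 0.259, 0.761 and 0.407). In all, 1 of the 6 passed as lower and 0 as higher, where 4.81% and 3.48% of all genes tested passed. The median log2 fold change was -0.24, beside -0.008 over all genes tested. By an unadjusted p under 0.05, 3 were lower and 0 higher: SLC30A1, PGF and SLC39A10. This count and the median thus include SLC39A10, which MTF1 represses, and the share of all genes at that unadjusted p was not worked out. DESeq2 and the edgeR exact test called 2 lower, PGF and SLC30A1. Over all 16555 genes tested these tools called 1105 and 1235 lower.

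Few zinc transporters passed the test. Of the SLC30 exporters, which carry zinc out of the cytosol, 7 of 10 could be tested and 0 passed in either direction in edgeR, with log2 fold changes from -0.63 to 0.43 and a median of -0.15. SLC30A1 was the 1 gene of them with an unadjusted p under 0.05, and DESeq2 and the edgeR exact test called it. SLC30A10, which carries manganese, had at most 2 reads in a library. Of the SLC39 importers, which carry zinc into the cytosol, 11 of 14 could be tested. SLC39A4, the importer that is mutated in acrodermatitis enteropathica, was higher at 14.1, 15.7 and 19.6 against 29.9, 29.5 and 22.5 CPM, with a log2 fold change of 0.73 (SE 0.16, edgeR adjusted p = 0.0242). Its call was lost without control replicate 1 (0.123), control replicate 2 (0.118) or TFAM-OE replicate 2 (0.118). The other 10 did not pass in edgeR's quasi-likelihood test, where 3.48% of all genes tested passed as higher. The median of the 11 was 0.0. By an unadjusted p under 0.05, 3 were higher and 2 lower. The share of all genes at that unadjusted p was not worked out. DESeq2 and the edgeR exact test called 2 of the 11 higher, SLC39A4 and SLC39A11, the latter with a log2 fold change of 0.40 (edgeR adjusted p = 0.0703). Over all 16555 genes tested, DESeq2 called 932 higher and 1105 lower, and the exact test 979 higher and 1235 lower.

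Copper handling genes, among them the copper pumps ATP7A and ATP7B and the chaperones ATOX1 and CCS, gave 0 calls of 11 in edgeR, with a median log2 fold change of 0.17 and a range of -0.44 to 0.39. By an unadjusted p under 0.05, 2 were higher and 2 lower, and the share of all genes at that unadjusted p was not worked out. The edgeR exact test called 1, SCO2, as lower, and DESeq2 called 0. Over all 16555 genes tested, the exact test called 1235 lower and DESeq2 1105. The groups did not overlap for 4 of the 11 with higher and 2 with lower values, beside 15.8% of all genes tested in each direction.

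Genes that respond to glucocorticoids, which are among the known inducers of MT2A, gave 3 lower and 0 higher of 12 in edgeR, where 4.81% of all genes tested passed as lower. Their median log2 fold change was -0.17. PER1, a clock repressor, had 42.5, 35.6 and 27.6 against 20.5, 15 and 14.7 CPM (log2 fold change -1.07, SE 0.18, edgeR adjusted p = 0.00833). Its adjusted p was 0.0535 without control replicate 1, 0.0552 without control replicate 2 and 0.0523 without TFAM-OE replicate 2. ZFP36, which marks AU-rich mRNAs for decay, had 39.1, 35.8 and 30.2 against 18.4, 17.9 and 20.2 CPM (-0.89, SE 0.13, edgeR adjusted p = 0.00344) and was called in 17 of 17 alternatives. SGK1, a kinase that controls sodium transport, had 25.4, 22.4 and 21.8 against 16.3, 16.5 and 17.2 CPM (-0.48, SE 0.11, edgeR adjusted p = 0.0323). Without control replicate 1, 2 or 3 or TFAM-OE replicate 2 its edgeR adjusted p was 0.154, 0.121, 0.0536 and 0.166. TSC22D3 and FKBP5, classic glucocorticoid-induced genes, had log2 fold changes of 0.13 and 0.18 and did not pass (edgeR adjusted p = 0.521 and 0.672). DESeq2 called 4 lower, the 3 genes above and CRISPLD2, a secreted protein gene with 14.9, 11.8 and 7.94 against 6.34, 7.87 and 8.26 CPM, whose log2 fold change of -0.62 had an edgeR adjusted p of 0.108. Over all 16555 genes tested, DESeq2 called 1105 lower, more than the edgeR quasi-likelihood test. PER1, ZFP36 and SGK1 are known to be induced by other stimuli too, such as serum.

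Genes induced by metals and oxidants, which share inducers with the metallothioneins, gave 2 lower and 0 higher of 9 in edgeR. Over all genes tested, 4.81% passed as lower and 3.48% as higher. The median log2 fold change of the 9 was -0.14, beside -0.008 over all genes tested. HMOX1, the heme-degrading enzyme, had 859, 773 and 627 against 369, 319 and 254 CPM. This log2 fold change of -1.26 (SE 0.16, edgeR adjusted p = 0.00186) was the largest of any listed gene and was called in 17 of 17 alternatives. SRXN1, which repairs oxidised peroxiredoxins, had 921, 889 and 853 against 640, 604 and 517 CPM (-0.60, SE 0.11, edgeR adjusted p = 0.011). Its call was lost without control replicate 1 (0.0654), control replicate 2 (0.0723) or TFAM-OE replicate 2 (0.0692). TXNRD1, GCLM, NQO1, SLC7A11, HSPA1A, HSPA1B and DNAJB1 had log2 fold changes between -0.27 and 0.24 and did not pass. The groups did not overlap for 3 of the 9 with lower values and 1, DNAJB1, with higher values, beside 15.8% of all genes tested in each direction. Between the groups, MT1X and MT1F were thus higher and HMOX1 and SRXN1 lower in the libraries labelled TFAM-OE. Within that group, replicate 3 was lowest for HMOX1 (254 CPM), SRXN1 (517) and MT1X (22.6), and highest for MT1F (4.83). A relation between these genes over the libraries was not tested.

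**Figure D5:**
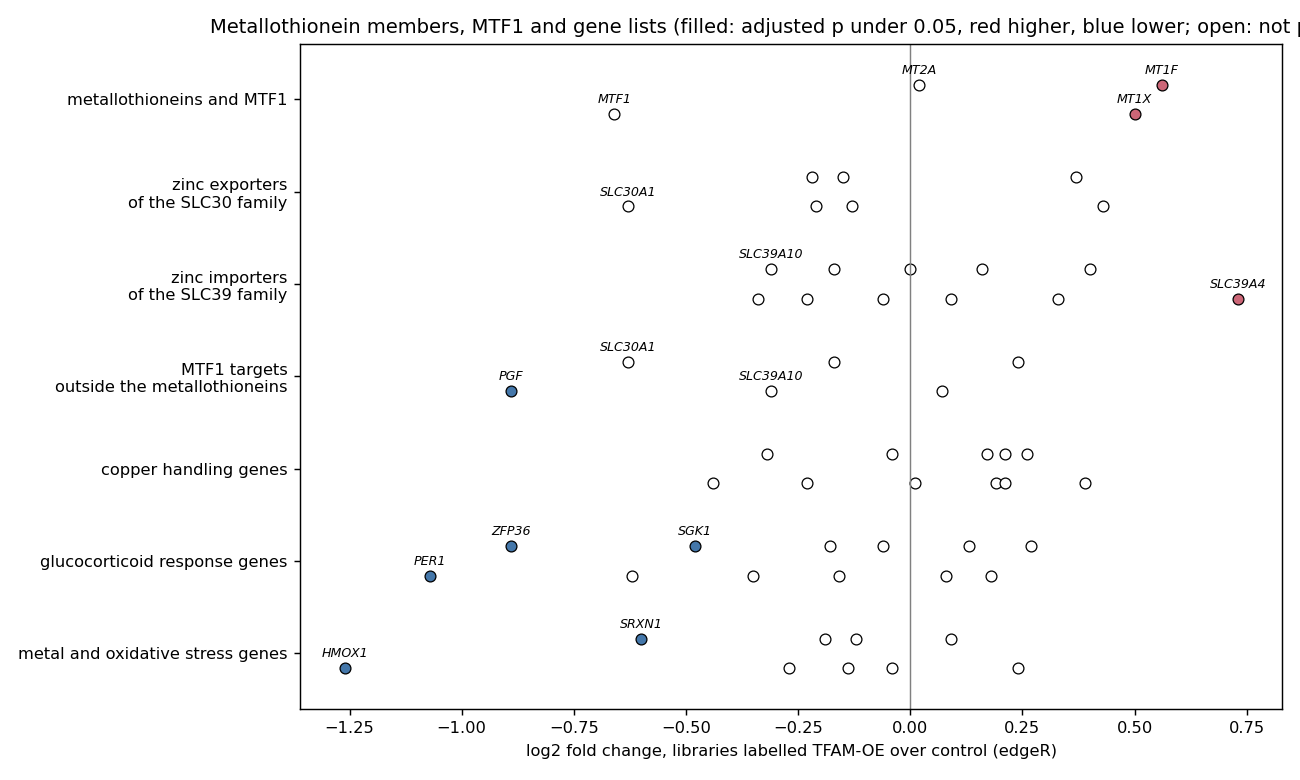
Log2 fold changes of the libraries labelled TFAM-OE over the control (horizontal axis, edgeR) for the 4 tested members and the tested genes of 6 lists (rows). Filled points passed an adjusted p of 0.05, red where higher and blue where lower, and open points did not pass. MT1F, MT1X and SLC39A4 are filled on the right, and PGF, PER1, ZFP36, SGK1, HMOX1 and SRXN1 on the left, while MTF1 and SLC30A1 are open at -0.66 and -0.63.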

How the data were processed

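RNA of A549 cells was sequenced in 6 libraries from a stranded mRNA kit, 3 per group, grouped by their labels. The authors trimmed the reads, dropped those under 16 nt, used TopHat2 to align what remained to GRCh38 with up to 4 mismatches, and counted uniquely mapped reads per gene. They deposited raw read counts per gene and FPKM values rounded to 2 decimals, for each library without pooling. Which program and annotation were used for counting, and whether strand was used, is not given in the sources used here. Unused value columns numbered 0.

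Counts were tested in edgeR (4.0.16, R 4.3.3) by its quasi-likelihood test after filterByExpr and TMM scaling, two-sided, with group as the only term and Benjamini-Hochberg adjustment over the 16555 genes kept. Genes passed at an adjusted p under 0.05, and the thresholds of the study add a fold of at least 2 or at most 0.5. CPM are TMM-scaled. Log2 fold changes are the libraries labelled TFAM-OE over the control. Counts limit only the counting error, since reads carry no molecular identifiers. No pair of libraries of a group agreed within sampling noise. The alternatives were other filters, RLE, upper quartile or no scaling, DESeq2 (1.42.0), the edgeR exact test, limma-voom (limma 3.58.1), limma-trend on log2(FPKM + 0.1) and log2(FPKM + 1), the replicate number as a block, and each library left out.

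Coordinates, transcripts and neighbours come from GENCODE 44 on GRCh38, which held 97.2% of the gene IDs without their version, and promoters from RefSeq (GRCh38.p14). Scripts ran in Python (3.11.15) with pandas (2.3.3), Biopython (1.88) and matplotlib (3.10.9). The fit was tested on simulated data. The genes named are the members, other metallothionein genes with at least 10 reads in a library, SLC30A1, SLC30A10, SLC39A10, the list genes with the smallest p-values among those that passed, the genes flanking the cluster, TFAM, and the 5 genes most like MT2A. Other genes are given as examples of their list or of a call that another tool made. The members and the lists were chosen with earlier results of these data known.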

Additional observations from a re-analysis of the deposited data

How the results depend on the processing

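Each gene was fitted under 17 alternatives. MT1F and MT1X kept their direction in all 17 and passed in 10 and 11 of them. Without a scaling factor MT1F (log2 fold change 0.54) and MT1X (0.47) had an edgeR adjusted p of 0.0547 each. Leaving out 1 library moved MT1F between 0.52 and 0.63 and MT1X between 0.42 and 0.58. MTF1 passed with every gene with a read (-0.65), in DESeq2 (-0.65) and in the edgeR exact test (-0.66), and lay between -0.82 and -0.49 with 1 library left out. MT2A passed in 0 of 17. Its sign turned without a scaling factor (-0.0087), in limma-voom (-0.0039), on log2(FPKM + 0.1) and log2(FPKM + 1) (-0.027 each), and it ran from -0.15 to 0.20 with 1 library left out. The cause was not tested.

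Deviations of same-numbered libraries from their group means correlated at -0.303, 0.0362 and -0.358. Those of differently numbered libraries correlated between -0.09 and 0.338. Deviations from the mean of 3 libraries are tied to each other, so these values cannot settle whether the replicate numbers pair the libraries. With the replicate block the log2 fold changes were 0.57 for MT1F (adjusted p = 0.152), 0.50 for MT1X (0.11) and -0.0034 for MT2A, and edgeR called 74 genes higher and 285 lower, 38 and 217 of them past both thresholds. The block, which uses up degrees of freedom, also took the calls of SLC39A4 (0.117), PGF (0.096), SGK1 (0.141) and SRXN1 (0.0609).

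Over all genes tested, 576 were higher and 796 lower, and 74 and 342 passed both thresholds. With every gene with a read these were 1034, 1485, 129 and 528. DESeq2 called 932 higher and 1105 lower, and the edgeR exact test 979 higher and 1235 lower. On log2(FPKM + 0.1), 44 genes passed both thresholds as higher, and on log2(FPKM + 1), 11 as higher and 108 as lower. With 1 library left out the counts ran from 66 to 1428 higher, from 240 to 1786 lower, from 21 to 113 higher past both thresholds and from 183 to 448 lower past both. The fewest reads of a tested member, 85 for MT1F, give a counting error of 10.8%.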

Other observations

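The level of MT2A over the 6 libraries was followed closely by unrelated genes. The 5 genes with the highest Pearson correlation of log2 CPM with MT2A, among 9400 genes with a mean of at least 10 CPM, were TIGD5 (r = 0.9993), CCDC107 (0.9980), RNASEK (0.9957), ERCC2 (0.9955) and KRT7 (0.9952). KRT7, a keratin of simple epithelia, had 2623, 2963 and 2900 CPM in the control and 3263, 2877 and 2408 in the libraries labelled TFAM-OE, and so was highest in TFAM-OE replicate 1 and lowest in TFAM-OE replicate 3 like MT2A. An r of at least 0.95 was found for 190 of the 9400 genes (2.02%). The metallothionein MT1A correlated with MT2A at 0.72, MT1X at 0.24, MT1F at 0.00 and MTF1 at -0.50. These are descriptions over 6 libraries, whose genes share depth, scaling and group.

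TFAM-OE replicates 1 and 3, which held the highest and the lowest MT2A, were also the pair of replicates that stood farthest apart over all genes, with a chi-square of 60.7 per degree of freedom. The other replicate pairs had between 8.01 and 26.5.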
